A study of Mus musculus with 4 samples.

Results

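Proteasome genes were followed across 4 single-colour Agilent arrays of mouse bone marrow progenitors. The members were every gene whose symbol starts with Psm, then a letter from a to g, then a digit, which gave 49 genes, read by 62 probes, of 24278 genes named on the array. Of these, 14 encode the constitutive core particle, 3 its inducible catalytic subunits, 2 tissue-restricted core subunits, 20 carry regulatory particle names (6 Psmc and 14 Psmd), 4 encode activators, 1 an inhibitor and 4 assembly chaperones. The remaining member, Psmc3ip, was matched by its name alone: it is a partner of meiotic recombinases, not a proteasome gene, and it is counted with the members unless stated.

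The 4 groups had 1 array each: CLP from SFRP5-transgenic mice (SFRP5 CLP), LSK cells from SFRP5-transgenic mice (SFRP5 LSK), CLP from wild-type littermates (WT CLP) and LSK cells from wild-type littermates (WT LSK), all freshly isolated from adult bone marrow. The LSK gate took c-kit-high, Sca-1-positive cells without lineage markers, which hold the blood stem cells and multipotent progenitors. The CLP gate took IL7Rα-positive cells that were low for both c-kit and Sca-1 and also without lineage markers, a sort enriched for common lymphoid progenitors. SFRP5 is a secreted Wnt antagonist, and the stated aim was to find the genes it regulates. The labels name neither the promoter that drives the transgene nor how many mice, and of which sex, stand behind each array.

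The proteasome is the protease that degrades ubiquitin-tagged proteins in the cytosol and nucleus. Its core is a barrel of alpha and beta rings whose beta subunits Psmb5, Psmb6 and Psmb7 cut the substrate, and a regulatory cap of ATPase (Psmc) and non-ATPase (Psmd) subunits recognises, unfolds and feeds it. In immune cells and under interferon the catalytic subunits are replaced by Psmb8, Psmb9 and Psmb10, and the core can be capped instead by the activator of Psme1 and Psme2, which shifts the peptides made for MHC class I. Drugs that block the core are used against plasma cell cancers.

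Levels are log2 signals relative to the 75th percentile of the same array, so that 0 is that percentile, and differences between arrays are log2 differences. Probes differ in brightness, so only differences, never levels, are set side by side between genes. With 1 array per group no difference has a replicate check, no p-value was made, and "higher" or "lower" describes these arrays. A 2-fold difference, 1 on the log2 scale, is used as the mark of size. Replicate spots of 399 probes within an array had a median SD of 0.0586 to 0.0706 log2 at or above the 75th percentile and 0.196 to 0.241 below it, which covers neither cells, mice nor amplification.

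Between 65.3% and 70.1% of probes were well above background on each array and no spot was saturated. The only Sfrp5 probe was above background on all 4 arrays with levels from -0.31 to 0.00, so on it the SFRP5 arrays did not stand apart; whether it lies in the transgene is not known here. Of the genes behind the gates, Il7r was higher in CLP than in LSK in both genotypes, by 2.24 in SFRP5 and 3.03 in WT. Kit and Ly6a (Sca-1) were lower in CLP. Flt3, which is not part of the gates as described, was also lower in CLP, 6.85-fold in SFRP5 and 6.52-fold in WT. Markers of other bone marrow cells moved with the sort. The summed erythroid signal (7 genes) was 298 times the 75th percentile in SFRP5 CLP and 28.1 times in SFRP5 LSK, and 500 times in WT CLP and 27.3 times in WT LSK. The sum over 5 granulocyte and monocyte genes was 309 in SFRP5 CLP and 53.0 in SFRP5 LSK, and 272 in WT CLP and 31.2 in WT LSK. Over 6 B lineage genes it was 87.8 and 6.49 in SFRP5 CLP and LSK, and 73.3 and 4.44 in WT CLP and LSK. Over 6 basophil and mast cell genes it was 38.7 and 7.06 in SFRP5 CLP and LSK, and 55.2 and 6.17 in WT CLP and LSK. Within this list Gata2 went the other way (-0.98 in SFRP5 and -0.68 in WT, CLP minus LSK), and Mcpt4 was above background on the LSK arrays alone. Such sums are led by the brightest probes, on the CLP arrays Hba-a1 in the erythroid list and Prss34 in the basophil and mast cell list. In bulk samples, a different mix of cells and a different amount of RNA per cell cannot be told apart. The genotypes also differed in sex-linked genes, with Xist above background on both SFRP5 arrays and on neither WT array. Every array had signal from the 4 Y-linked genes of the list, which were 1.76-fold (Eif2s3y in LSK) to 4.80-fold (Uty in CLP) lower in SFRP5, so the SFRP5 arrays carried both kinds of signal. Genotype and these differences cannot be told apart.

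Of the 49 members, 47 were above background on all 4 arrays. Psmb11, the catalytic subunit of the thymic proteasome, was above background on none. Psma8, the alpha subunit of the testis proteasome, was the dimmest detected member, with levels of -3.62 in SFRP5 CLP and -5.33 in SFRP5 LSK, and at -2.90 in WT CLP and -2.92 in WT LSK, and its SFRP5 LSK signal was not well above background. Against the lowest signal that counts as above background on that array (-4.80), Psma8 was at least 2.27-fold higher in SFRP5 CLP than in SFRP5 LSK and at least 3.68-fold lower in SFRP5 LSK than in WT LSK. Both tissue-restricted subunits were thus near or under the detection limit, and every member of the ordinary proteasome was detected on every array.

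**Figure D1:**
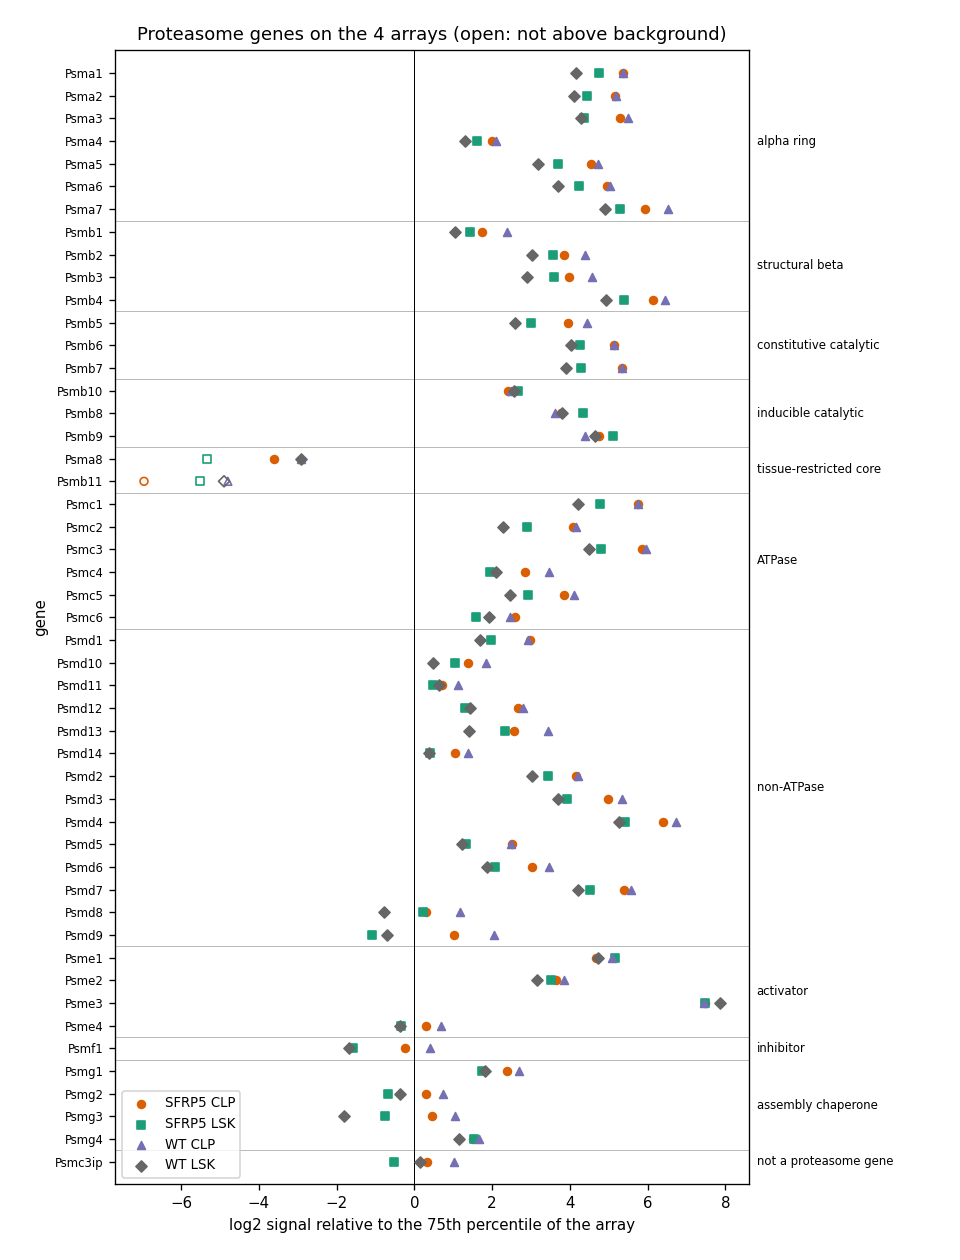
Level of each of the 49 members on the 4 arrays (x axis, log2 signal relative to the array's 75th percentile, 1 point per array; y axis, genes by role; open symbols, not well above background). Within a row, SFRP5 CLP (circles) and WT CLP (triangles) stand right of SFRP5 LSK (squares) and WT LSK (diamonds) for most core and regulatory genes. For Psmb8, Psmb9 and Psmb10 the LSK point lies right of the CLP point within each genotype.

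The constitutive core and the regulatory particle were higher in CLP than in LSK, and the inducible subunits were not. All 14 core and all 20 regulatory genes were higher in CLP in both genotypes, 34 of 34 genes, where 36.1% of all genes measured on the 4 arrays and 46.0% of the bright ones (those at or above the 75th percentile on at least 1 array) were. Psmb8, Psmb9 and Psmb10 were lower in CLP in both genotypes. Over all members the median difference, CLP minus LSK, was 0.74 in SFRP5 (47 measured) and 1.33 in WT (48 measured), against 0.02 and 0.02 over all genes and 0.11 and 0.32 over bright genes.

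In SFRP5, 42 of 47 members were above 0, where 51.5% of all measured genes and 56.4% of bright genes were, and in WT 44 of 48, against 50.6% and 60.6%. In SFRP5 11 of 47 members were at least 2-fold higher in CLP, where 11.5% of all measured genes and 13.3% of bright genes were, and 0 members were at least 2-fold lower, where 11% of all and 9.68% of bright genes were. In WT, 35 of 48 members were at least 2-fold higher, against 17.8% of all genes and 25.6% of bright genes, and 0 were at least 2-fold lower, against 14.3% and 11.5%. At least 2-fold higher in both genotypes were 10 of 47 members, where 7.0% of all and 9.82% of bright genes were. The members' share was thus 23.4% in SFRP5 and 72.9% in WT. These shares depended on the scaling. In SFRP5 they were 10.6% (5 members) with quantile normalization, 12.8% (6) with cyclic loess and 12.8% (6) with the authors' own scaling, where 10.3%, 10.4% and 8.48% of all genes passed, so in SFRP5 the count at 2-fold was near the background with the first 2 of these settings. In WT they were 35.4% (17), 37.5% (18) and 37.5% (18), where 16.1%, 15.6% and 9.61% of all genes passed. The medians stayed above 0, at 0.56 or more in SFRP5 and 0.88 or more in WT.

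**Figure D2:**
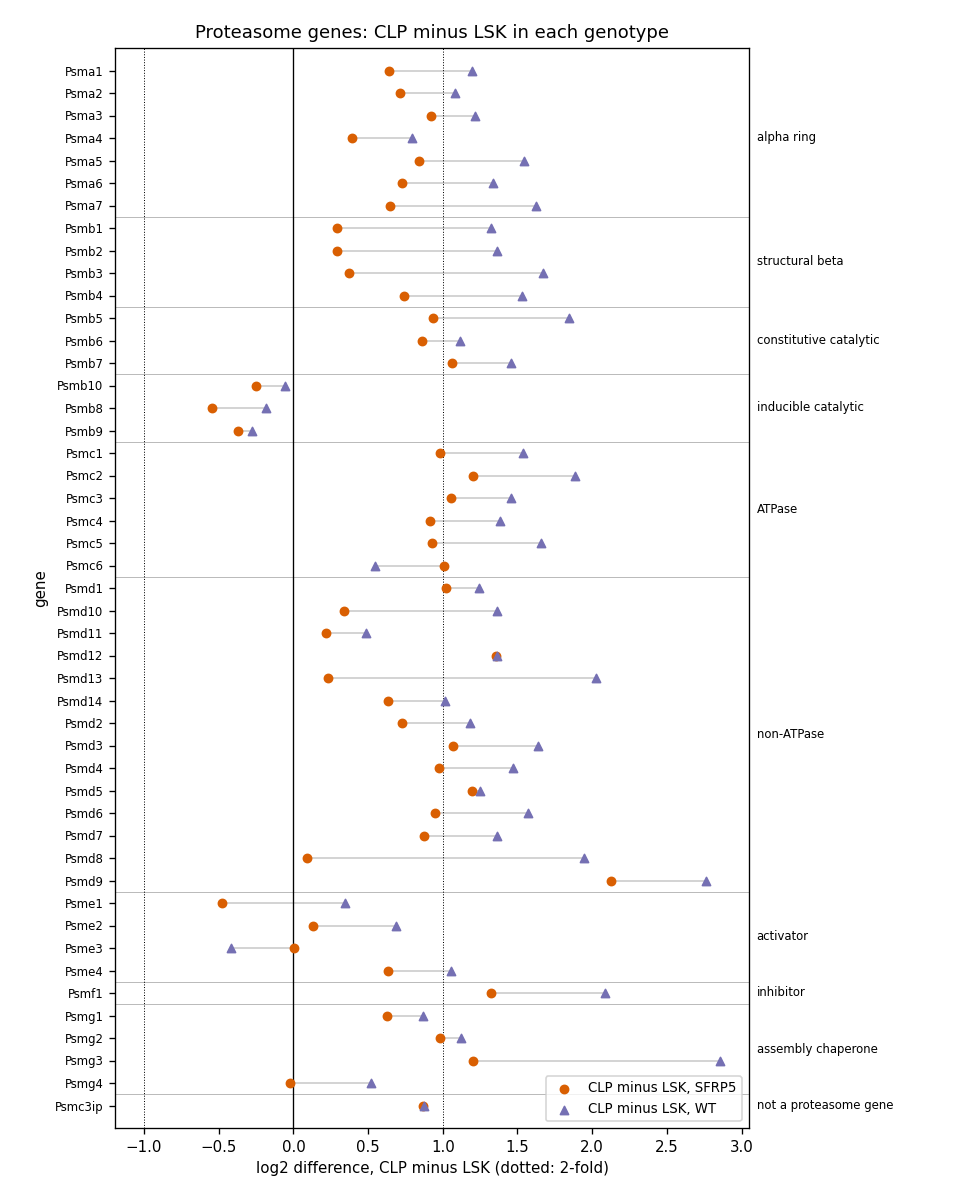
Difference between the sorts, CLP minus LSK, for each member above background on all 4 arrays (x axis, log2 difference, dotted lines at 2-fold; y axis, genes by role; circles, SFRP5; triangles, WT; 1 array per group). The core and regulatory genes all lie right of 0, the WT point lies right of the SFRP5 point for 45 of 47 members, and Psmb8, Psmb9 and Psmb10 lie left of 0.

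The 7 alpha subunits, which form the outer rings and the gate of the core, had median differences between CLP and LSK of 0.71 in SFRP5 and 1.22 in WT. Psma1 stood at 5.38 in SFRP5 CLP and 4.74 in SFRP5 LSK, and at 5.36 in WT CLP and 4.16 in WT LSK. Psma2 stood at 5.15 in SFRP5 CLP and 4.44 in SFRP5 LSK, and at 5.18 in WT CLP and 4.10 in WT LSK. Psma3 stood at 5.28 in SFRP5 CLP and 4.37 in SFRP5 LSK, and at 5.51 in WT CLP and 4.29 in WT LSK. The 3 genes were alike in that both CLP arrays were above both LSK arrays. Psma4 stood at 2.0 in SFRP5 CLP and 1.61 in SFRP5 LSK, and at 2.11 in WT CLP and 1.31 in WT LSK, and it had the smallest difference between sorts of the 7, 0.39 in SFRP5 and 0.80 in WT. Psma5 stood at 4.54 in SFRP5 CLP and 3.70 in SFRP5 LSK, and at 4.72 in WT CLP and 3.18 in WT LSK. Psma6 stood at 4.96 in SFRP5 CLP and 4.23 in SFRP5 LSK, and at 5.02 in WT CLP and 3.69 in WT LSK. Psma7 stood at 5.93 in SFRP5 CLP and 5.28 in SFRP5 LSK, and at 6.52 in WT CLP and 4.90 in WT LSK. In Psma7 the WT CLP array stood above the other 3. The largest difference between sorts in the ring was that of Psma3 in SFRP5 (1.89-fold) and of Psma7 in WT (3.08-fold). Of the 7, 0 reached 2-fold in SFRP5 and 6 did in WT.

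The 4 structural beta subunits, which help build the inner rings without cutting, differed most between the genotypes in this comparison among the role classes of 3 or more genes: their median difference between sorts was 0.33 in SFRP5 and 1.45 in WT. Psmb1 stood at 1.73 in SFRP5 CLP and 1.43 in SFRP5 LSK, and at 2.38 in WT CLP and 1.06 in WT LSK. Psmb2 stood at 3.85 in SFRP5 CLP and 3.56 in SFRP5 LSK, and at 4.38 in WT CLP and 3.02 in WT LSK. Psmb3 stood at 3.97 in SFRP5 CLP and 3.60 in SFRP5 LSK, and at 4.56 in WT CLP and 2.89 in WT LSK. In these 3 genes the order of the arrays was WT CLP, SFRP5 CLP, SFRP5 LSK and WT LSK, so that the SFRP5 arrays lay between the WT arrays. Psmb4, the remaining member, stood at 6.13 in SFRP5 CLP and 5.39 in SFRP5 LSK, and at 6.46 in WT CLP and 4.93 in WT LSK and kept the same order. In SFRP5 0 of the 4 were at least 2-fold higher in CLP, with 1.22-fold (Psmb2) to 1.67-fold (Psmb4), and in WT all 4 were, with 2.50-fold (Psmb1) to 3.19-fold (Psmb3).

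The catalytic subunits come in pairs, a constitutive one and the inducible one that takes its place. Psmb5, which cuts after hydrophobic residues, stood at 3.95 in SFRP5 CLP and 3.01 in SFRP5 LSK, and at 4.44 in WT CLP and 2.59 in WT LSK. Psmb8, its inducible counterpart, stood at 3.78 in SFRP5 CLP and 4.33 in SFRP5 LSK, and at 3.61 in WT CLP and 3.79 in WT LSK. Psmb5 was thus highest in the CLP arrays, whereas Psmb8 was highest in SFRP5 LSK and differed little among the other 3. Psmb6, which cuts after acidic residues, stood at 5.14 in SFRP5 CLP and 4.27 in SFRP5 LSK, and at 5.14 in WT CLP and 4.03 in WT LSK. Psmb9, which replaces it, stood at 4.75 in SFRP5 CLP and 5.12 in SFRP5 LSK, and at 4.38 in WT CLP and 4.66 in WT LSK. The 2 CLP arrays had nearly the same level of Psmb6, above both LSK arrays, while Psmb9 was higher in LSK within each genotype and in SFRP5 within each sort. Psmb7, which cuts after basic residues, stood at 5.35 in SFRP5 CLP and 4.28 in SFRP5 LSK, and at 5.35 in WT CLP and 3.89 in WT LSK. Psmb10, which replaces it, stood at 2.42 in SFRP5 CLP and 2.67 in SFRP5 LSK, and at 2.50 in WT CLP and 2.55 in WT LSK, a range of less than 0.3 over the 4 arrays.

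Within each pair the inducible gene's difference between sorts was below that of its constitutive counterpart. The gap, inducible minus constitutive, was -1.48 in SFRP5 and -2.03 in WT for Psmb8 and Psmb5. It was -1.23 in SFRP5 and -1.39 in WT for Psmb9 and Psmb6, and -1.31 in SFRP5 and -1.51 in WT for Psmb10 and Psmb7. The relative signal of the inducible subunits was therefore 2.35-fold to 4.07-fold lower in CLP than in LSK over the 3 pairs and both genotypes. Because both genes of a pair are read on the same arrays, this gap is not changed by adding a constant to an array. Its median over the 3 pairs stayed between -1.35 and -1.27 in SFRP5 and between -1.51 and -1.39 in WT under all 8 alternative settings tried. Of these, bright centring, the authors' scaling and the 2 filters could not change it. Only quantile normalization, cyclic loess, normexp and averaging over probes could. Each of the 3 inducible genes was lower in CLP under each of the 8 settings too, of which the 2 filters and averaging over probes could not change their values. The smallest of these differences was that of Psmb10 in WT, which ranged from -0.49 to -0.06. A second Psmb9 probe was above background on no array.

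**Figure D3:**
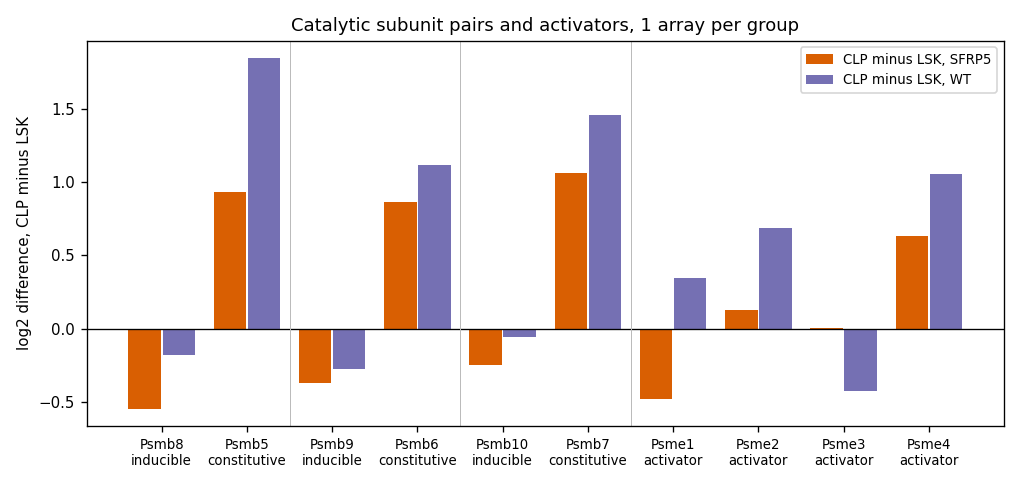
Difference between the sorts, CLP minus LSK, of the 3 pairs of inducible and constitutive catalytic subunits and of the 4 activators (y axis, log2 difference; bars, 1 per genotype, SFRP5 left of WT; no error bars, since each group has 1 array). The bars of Psmb8, Psmb9 and Psmb10 are below 0 and those of Psmb5, Psmb6 and Psmb7 above 0 in both genotypes.

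The promoters of 2 of these pairs are shown because their members differed in how they moved between the sorts. They are RefSeq sequences on GRCm38.p6, 250 bases before to 50 bases after the start of the gene. Psmb8 is chr17:34197945-34198244 (plus strand), Psmb5 is chr14:54617946-54618245 (minus strand), Psmb9 is chr17:34187281-34187580 (minus strand) and Psmb6 is chr11:70525107-70525406 (plus strand). Capitals mark matches, on either strand, to TTCNNNGAA (the gamma-activated site) or to TGACNNNGC (the C form of the antioxidant response element, the class of site through which the transcription factor Nfe2l1 is known to raise proteasome genes).
Psmb8: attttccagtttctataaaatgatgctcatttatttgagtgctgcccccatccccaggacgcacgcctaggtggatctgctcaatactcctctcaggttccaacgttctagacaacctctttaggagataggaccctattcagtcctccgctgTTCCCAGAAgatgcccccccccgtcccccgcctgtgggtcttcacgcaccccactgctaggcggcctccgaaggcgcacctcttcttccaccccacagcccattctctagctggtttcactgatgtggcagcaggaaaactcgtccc
Psmb5: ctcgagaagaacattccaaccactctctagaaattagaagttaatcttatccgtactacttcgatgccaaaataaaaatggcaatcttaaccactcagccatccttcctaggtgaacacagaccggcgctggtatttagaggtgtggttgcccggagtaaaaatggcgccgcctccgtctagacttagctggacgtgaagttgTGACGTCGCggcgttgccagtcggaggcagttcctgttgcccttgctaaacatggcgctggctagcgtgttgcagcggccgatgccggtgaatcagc
Psmb9: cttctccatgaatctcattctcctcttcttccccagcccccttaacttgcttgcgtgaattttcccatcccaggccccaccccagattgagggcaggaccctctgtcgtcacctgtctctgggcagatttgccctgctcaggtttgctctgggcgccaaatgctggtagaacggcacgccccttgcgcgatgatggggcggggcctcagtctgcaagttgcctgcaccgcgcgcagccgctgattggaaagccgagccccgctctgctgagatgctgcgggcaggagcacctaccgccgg
Psmb6: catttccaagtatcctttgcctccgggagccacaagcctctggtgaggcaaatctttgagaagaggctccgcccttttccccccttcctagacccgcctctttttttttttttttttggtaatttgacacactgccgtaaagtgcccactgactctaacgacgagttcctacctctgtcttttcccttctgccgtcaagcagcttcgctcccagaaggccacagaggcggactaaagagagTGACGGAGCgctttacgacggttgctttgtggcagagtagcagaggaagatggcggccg

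The Psmb8 match, TTCCCAGAA, begins 97 bases before the start. The Psmb5 match, TGACGTCGC, begins 47 bases before it, and that of Psmb6, TGACGGAGC, 9 bases before it. The Psmb9 window held none of the 5 motifs searched. Of 49 members 41 had a promoter in the table. TTCNNNGAA was found in 3 of the 41 (7.32%) and in 8.30% of all 32851 promoters, and TGACNNNGC in 6 (14.6%) and in 12.4% of all. The other forms searched were TGAGNNNGC in 13 of 41 (31.7%; 17.6% of all promoters), an NF-kB type site (GGGA and CC 4 bases apart) in 10 (24.4%; 20.7%), and the interferon-stimulated response element (GAAA and GAAA 2 bases apart) in 5 (12.2%; 3.44%). The last was found in Psmb3, Psmd4, Psmd9, Psme1 and Psmg4 and in none of the inducible catalytic subunits. A match says only that these letters are in the window.

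The 6 ATPases, which unfold the substrate, had median differences between CLP and LSK of 1.0 in SFRP5 and 1.5 in WT. Psmc1 stood at 5.75 in SFRP5 CLP and 4.77 in SFRP5 LSK, and at 5.74 in WT CLP and 4.20 in WT LSK. Psmc2 stood at 4.09 in SFRP5 CLP and 2.89 in SFRP5 LSK, and at 4.15 in WT CLP and 2.27 in WT LSK. Psmc3 stood at 5.85 in SFRP5 CLP and 4.80 in SFRP5 LSK, and at 5.96 in WT CLP and 4.50 in WT LSK. In all 3, on the brightest probe, the CLP arrays of both genotypes were 0.11 or less apart and SFRP5 LSK was above WT LSK. Psmc4 stood at 2.86 in SFRP5 CLP and 1.95 in SFRP5 LSK, and at 3.48 in WT CLP and 2.09 in WT LSK. Psmc5 stood at 3.86 in SFRP5 CLP and 2.94 in SFRP5 LSK, and at 4.12 in WT CLP and 2.46 in WT LSK. Psmc6, the exception, stood at 2.59 in SFRP5 CLP and 1.58 in SFRP5 LSK, and at 2.46 in WT CLP and 1.92 in WT LSK. Psmc6 was the only core or regulatory gene with a larger difference between sorts in SFRP5 (1.01) than in WT (0.55). Psmc2 had the largest in both genotypes, 2.30-fold in SFRP5 and 3.69-fold in WT. A further probe each of Psmc1, Psmc2 and Psmc3 was higher in CLP in both genotypes as well. That of Psmc3 put SFRP5 CLP below WT CLP by more than the brightest probe did (-0.54 against -0.11).

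Among the 14 Psmd genes the median differences between CLP and LSK were 0.91 in SFRP5 and 1.36 in WT, and 5 and 13 of the 14 were at least 2-fold higher. Psmd1 and Psmd2 are the large scaffold subunits of the base. Psmd1 stood at 2.99 in SFRP5 CLP and 1.97 in SFRP5 LSK, and at 2.92 in WT CLP and 1.68 in WT LSK. Psmd2 stood at 4.16 in SFRP5 CLP and 3.43 in SFRP5 LSK, and at 4.21 in WT CLP and 3.03 in WT LSK. Psmd4, a receptor for ubiquitin chains, stood at 6.39 in SFRP5 CLP and 5.41 in SFRP5 LSK, and at 6.73 in WT CLP and 5.26 in WT LSK. All 3 had both CLP arrays above both LSK arrays. Psmd14, the enzyme that removes ubiquitin from the substrate, stood at 1.05 in SFRP5 CLP and 0.41 in SFRP5 LSK, and at 1.39 in WT CLP and 0.37 in WT LSK. Psmd7, its partner, stood at 5.39 in SFRP5 CLP and 4.52 in SFRP5 LSK, and at 5.58 in WT CLP and 4.22 in WT LSK. Their LSK arrays were 0.04 and 0.31 apart, and both CLP arrays were above both LSK arrays.

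The other subunits of the lid are structural. Psmd3 stood at 4.99 in SFRP5 CLP and 3.92 in SFRP5 LSK, and at 5.33 in WT CLP and 3.69 in WT LSK. Psmd6 stood at 3.04 in SFRP5 CLP and 2.09 in SFRP5 LSK, and at 3.45 in WT CLP and 1.88 in WT LSK. Both were higher in CLP in each genotype. Psmd12 stood at 2.66 in SFRP5 CLP and 1.31 in SFRP5 LSK, and at 2.80 in WT CLP and 1.44 in WT LSK and differed between sorts by the same amount in both genotypes, 1.35 in SFRP5 and 1.36 in WT. A further Psmd12 probe gave 0.59 in SFRP5 and 1.18 in WT, so the equality held for 1 of its 2 probes. Psmd11 stood at 0.70 in SFRP5 CLP and 0.48 in SFRP5 LSK, and at 1.12 in WT CLP and 0.63 in WT LSK, the only Psmd gene under 2-fold in WT. Psmd8 stood at 0.30 in SFRP5 CLP and 0.21 in SFRP5 LSK, and at 1.17 in WT CLP and -0.77 in WT LSK. Psmd13 stood at 2.57 in SFRP5 CLP and 2.33 in SFRP5 LSK, and at 3.44 in WT CLP and 1.41 in WT LSK. In Psmd8 and Psmd13 the SFRP5 arrays were within 0.25 of each other, between a high WT CLP array and a low WT LSK array. Their differences between sorts were 1.07-fold and 1.17-fold in SFRP5, and 3.86-fold and 4.07-fold in WT.

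Psmd5, Psmd9 and Psmd10 carry Psmd names but act as chaperones that assemble the base of the regulatory particle. Psmd9 stood at 1.02 in SFRP5 CLP and -1.1 in SFRP5 LSK, and at 2.04 in WT CLP and -0.72 in WT LSK, the largest difference between sorts of any Psmd gene, 4.36-fold in SFRP5 and 6.77-fold in WT. A further Psmd9 probe gave log2 differences of 1.97 in SFRP5 and 2.46 in WT. Psmd5 stood at 2.52 in SFRP5 CLP and 1.33 in SFRP5 LSK, and at 2.48 in WT CLP and 1.23 in WT LSK. Psmd10, also known as gankyrin, stood at 1.38 in SFRP5 CLP and 1.04 in SFRP5 LSK, and at 1.86 in WT CLP and 0.49 in WT LSK. Psmd9 and Psmd5 were at least 2-fold higher in CLP in both genotypes, and Psmd10 in WT alone; a further Psmd10 probe was higher in CLP by 1.73 in SFRP5 and 1.20 in WT.

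The chaperones of the core particle and the inhibitor were also higher in CLP, with 1 exception. Psmg1 stood at 2.38 in SFRP5 CLP and 1.75 in SFRP5 LSK, and at 2.68 in WT CLP and 1.81 in WT LSK. Psmg2, which pairs with Psmg1, stood at 0.30 in SFRP5 CLP and -0.68 in SFRP5 LSK, and at 0.75 in WT CLP and -0.38 in WT LSK. Psmg3, which pairs with Psmg4, stood at 0.45 in SFRP5 CLP and -0.75 in SFRP5 LSK, and at 1.05 in WT CLP and -1.81 in WT LSK. Psmg3 was 2.30-fold higher in CLP in SFRP5 and 7.24-fold in WT, the largest difference between sorts of all measured members in WT. Psmg4 stood at 1.52 in SFRP5 CLP and 1.54 in SFRP5 LSK, and at 1.67 in WT CLP and 1.16 in WT LSK, and it did not stand apart between the sorts in SFRP5 (-0.02). Psmf1, which inhibits the core, stood at -0.25 in SFRP5 CLP and -1.57 in SFRP5 LSK, and at 0.41 in WT CLP and -1.67 in WT LSK, 2.50-fold higher in CLP in SFRP5 and 4.24-fold in WT. Psmc3ip, which is no proteasome gene, stood at 0.34 in SFRP5 CLP and -0.53 in SFRP5 LSK, and at 1.03 in WT CLP and 0.15 in WT LSK. Its difference between sorts, 0.87 in SFRP5 and 0.88 in WT, was as large as that of many subunits.

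The 4 activators did not move together. Psme1, which forms a ring with Psme2 and is raised by interferon gamma, stood at 4.68 in SFRP5 CLP and 5.16 in SFRP5 LSK, and at 5.08 in WT CLP and 4.73 in WT LSK. Psme1 was lower in CLP in SFRP5 (-0.48), under all 8 alternative settings too, of which the 2 filters and averaging over probes could not change it. In WT its difference was 0.35, but its direction depended on the scaling, with -0.25 by quantile normalization, -0.21 by cyclic loess and -0.07 by the authors' scaling. Psme2 stood at 3.64 in SFRP5 CLP and 3.51 in SFRP5 LSK, and at 3.85 in WT CLP and 3.16 in WT LSK. A further probe of Psme2 gave differences between sorts of 0.59 in SFRP5 and 1.24 in WT, whereas the last gave -0.77 and -1.65, and because the near-identical copy Psme2b may share the signal Psme2 is uncertain. Psme3, the nuclear activator, stood at 7.49 in SFRP5 CLP and 7.49 in SFRP5 LSK, and at 7.44 in WT CLP and 7.86 in WT LSK, with WT LSK above the other 3, which were within 0.05 of each other. Psme4, the large single-chain nuclear activator, stood at 0.30 in SFRP5 CLP and -0.33 in SFRP5 LSK, and at 0.69 in WT CLP and -0.36 in WT LSK, and its difference between sorts was like that of the subunits, 0.63 in SFRP5 and 1.06 in WT. The median over the 4 was 0.07 in SFRP5 and 0.52 in WT. In SFRP5 it was below 0, from -0.152 to -0.0061, with quantile normalization, cyclic loess, bright centring, the authors' scaling and the mean of probes, and in WT it became -0.0395 with quantile normalization.

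Further probes bore on 11 members. Of 12 such probes above background on all 4 arrays, 11 had the same sign as the main probe for the difference between sorts in SFRP5, 11 in WT, 11 for the difference between genotypes in CLP and 8 for that in LSK. The genotype difference in LSK was thus the one on which probes of a gene most often disagreed.

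Between the genotypes the differences were smaller. In CLP the members' median, SFRP5 minus WT, was -0.28 over 48 measured, against -0.04 over all genes and -0.03 over bright genes. In LSK it was 0.34 over 47 measured, against 0.02 over all genes and 0.18 over bright genes. Members in SFRP5 thus stood below WT in CLP for 40 of 48 genes, where 53.4% of all genes and 53.5% of bright genes did, and above WT in LSK for 38 of 47, where 51.3% of all and 62.4% of bright genes did. At least 2-fold apart were 1 measured member in CLP and 1 in LSK. Markers of other cell types also differed between the genotypes in CLP. There the erythroid list was lower in SFRP5 for 7 of 7 measured genes (median -0.64) and the basophil and mast cell list for 5 of 5 (-0.49), the B lineage list was higher for 6 of 6 (0.41), and the granulocyte and monocyte list was higher for 4 of 5 (0.05). In LSK the erythroid list was lower for 3 of 6 (-0.03) and the granulocyte and monocyte list higher for 4 of 5 (0.75). There the basophil and mast cell list was higher for 4 of 4 (0.15) and the B lineage list for 3 of 5 (0.22). The part of these markers in the members' genotype differences was not tested.

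In CLP 0 members were at least 2-fold higher in SFRP5, where 4.25% of all genes and 2.27% of bright genes were, and 1 was at least 2-fold lower, where 4.30% of all and 1.93% of bright genes were. That member was Psmd9 (-1.02), and its further probe gave -0.57. In LSK 1 member, Psmg3 (1.05), was at least 2-fold higher, where 6.57% of all and 6.01% of bright genes were, and 0 were at least 2-fold lower, where 7.17% of all and 3.12% of bright genes were. Psma8 was lower in SFRP5 LSK by its bound, given above. At this mark the members' shares, 2.08% lower in CLP and 2.13% higher in LSK, were near or below the background. The medians depended on the scaling: over all alternatives they ranged from -0.33 to -0.13 in CLP and from 0.17 to 0.35 in LSK. With the authors' scaling 15 of 48 members in place of 8 stood above 0 in CLP, where 55.5% of all genes in place of 46.6% did. With each array centred on its bright genes 31 of 47 in place of 38 did in LSK, where 41.1% of all genes in place of 51.3% did.

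The structural beta subunits had the lowest median in CLP, -0.56 (all 4 below 0), and the highest in LSK, 0.50 (all 4 above 0), of the role classes of 3 or more genes. The median of the constitutive catalytic subunits was -0.01 in CLP and 0.39 in LSK, and that of the alpha ring -0.11 in CLP and 0.38 in LSK. The ATPases stood at medians of -0.09 in CLP and 0.38 in LSK, the non-ATPase genes at -0.34 and 0.22, and the core chaperones at -0.38 and 0.16, where the last became -0.0047 with each array centred on its bright genes. In CLP the ATPase and constitutive catalytic medians were above 0 with 3 other scalings, at 0.0831 and 0.169 with quantile normalization, 0.0260 and 0.115 with cyclic loess, and 0.0111 and 0.0898 with the authors' scaling. For the inducible subunits the medians were 0.17 in CLP and 0.46 in LSK. Psmb8 was higher in SFRP5 by 0.17 in CLP and 0.54 in LSK, and Psmb9 by 0.37 in CLP and 0.46 in LSK. Psmb10 differed by -0.08 in CLP and 0.12 in LSK. Against its constitutive counterpart, the inducible gene's genotype difference was 0.66 for Psmb8, 0.38 for Psmb9 and -0.07 for Psmb10 in CLP, and 0.12, 0.22 and -0.27 in LSK. The activators Psme1, Psme2 and Psme4 were lower in SFRP5 in CLP (-0.39, -0.20 and -0.39) and higher in LSK (0.43, 0.35 and 0.03), and Psme3 went the other way (0.05 in CLP and -0.38 in LSK).

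**Figure D4:**
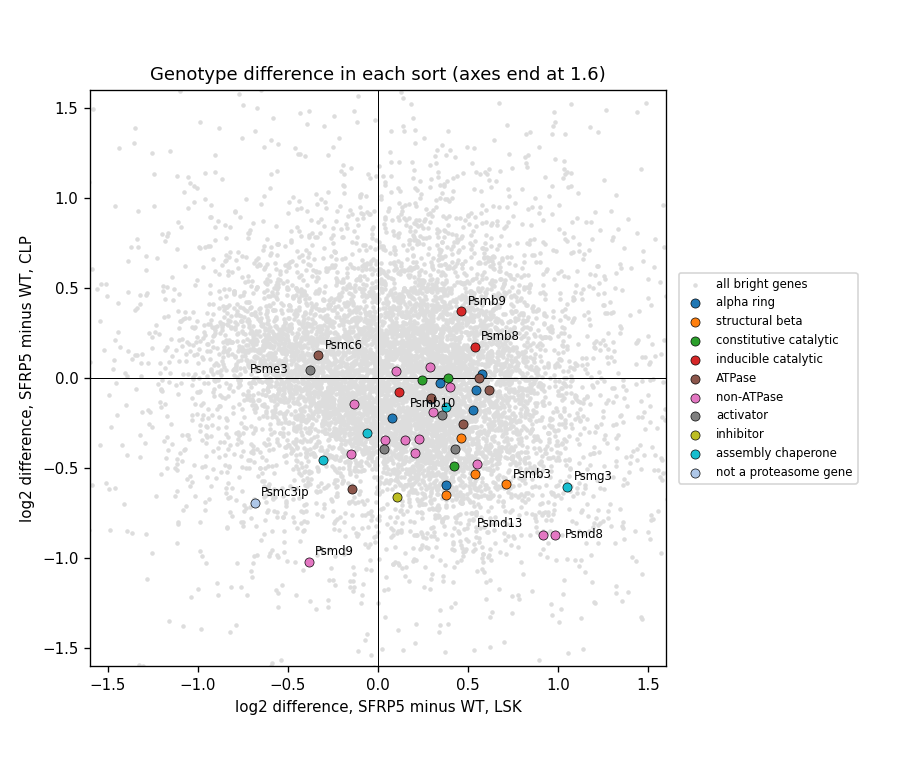
Difference between genotypes, SFRP5 minus WT, in LSK (x axis) and in CLP (y axis), both log2, for the 47 members above background on all 4 arrays (coloured by role) and for all bright genes (grey). Of the members 32 lie in the lower right part, higher in SFRP5 in LSK and lower in SFRP5 in CLP.

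Put together over the sorts, 32 of 47 members (68.1%) were higher in SFRP5 in LSK and lower in SFRP5 in CLP, where 29.2% of all genes and 34.3% of bright genes were. The opposite held for 2 of 47, Psmc6 and Psme3, where 23.8% of all and 20.2% of bright genes showed it. Psmd9, Psmc4, Psmd11, Psmd12, Psmg1, Psmg2 and Psmc3ip were lower in SFRP5 in both sorts, 7 members, where 24.1% of all and 18% of bright genes were. Some of these placements rest on the probe. A further probe each of Psmd12 (0.09 in LSK) and Psmg1 (0.07) showed the first pattern instead. A further probe each of Psmd10 (-0.61 in LSK) and Psme2 (-0.96), counted among the 32, was lower in SFRP5 in both sorts. By sign alone 6 members were above 0 in both, against 22.9% and 27.6%. Of these only Psmb8 and Psmb9 differed in both sorts by at least the spread of replicate spots (0.0885), a mark added after seeing the data. These are 2 of 47 members, where 16.9% of all genes were above 0 in both sorts at this mark. In CLP Psma1, Psmc1, Psmd1 and Psmd5 differed by less than the mark. The mark comes from probes at or above the 75th percentile. Spots of dimmer probes spread more (median SD 0.196 to 0.241 within an array), so for dim genes the mark is lenient. At the same mark 22 members were higher in SFRP5 in LSK and lower in SFRP5 in CLP (22.5% of all genes), 1 the reverse (Psmc6; 17.7%), and 6 were lower in both (17.2%), with Psmg1 no longer among them. The count of the first group also depended on the scaling: 21 of 47 members showed these signs with cyclic loess, where 29.1% of all genes did, and 21 with the authors' scaling, where 21.0% did.

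At 1.5-fold each way, 4 members were higher in SFRP5 in LSK and lower in SFRP5 in CLP, where 3.0% of all and 2.79% of bright genes were: Psmd8, Psmd13, Psmg3 and Psmb3. The reverse at the same mark was seen in 0 members, where 2.73% of all and 1.53% of bright genes showed it. Psmd8 differed by -0.87 in CLP and 0.98 in LSK, Psmd13 by -0.87 and 0.92, Psmg3 by -0.60 and 1.05, and Psmb3 by -0.59 and 0.71. Each kept both signs under all 8 alternative settings, but the 2 filters and averaging over probes could not move these genes. Each of the 4 has 1 probe and was above background on all 4 arrays. Psmb3 fell short of the mark under each of the other 5 settings, and Psmg3 under 3 of those 5.

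The same 4 values make up the difference between sorts within each genotype, so the genotype and sort comparisons share arrays. For 45 of 47 members the difference, CLP minus LSK, was smaller in SFRP5 than in WT, where this was so for 52.8% of all genes and 58.9% of bright genes, and 36 to 46 of the 47 to 49 members counted showed it under the alternative settings, where 41.2% to 58.1% of all genes did. The exceptions were Psmc6 and Psme3. On a further probe each, Psmd10 (1.73 in SFRP5 and 1.20 in WT) and Psme2 (-0.77 and -1.65) would be exceptions too. The members' median of SFRP5 minus WT for this difference was -0.49, against -0.05 over all genes and -0.17 over bright genes, and it ranged down in size to -0.24 with quantile normalization. By role it was -1.05 for the structural beta subunits, -0.56 for the alpha ring, -0.51 for the ATPases, -0.49 for the non-ATPase genes and the activators, -0.39 for the constitutive catalytic subunits and the core chaperones, and -0.19 for the inducible subunits.

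Cytosolic ribosomal protein genes (81 measured) and nuclear genes of the respiratory chain and ATP synthase (87 measured), other housekeeping groups made in fixed proportions, show how far this was shared. Their median differences, SFRP5 minus WT, were -0.42 and -0.41 in CLP and 0.32 and 0.31 in LSK, so the members' -0.28 and 0.34 were no larger in CLP and about as large in LSK. Their median SFRP5 minus WT for the difference between sorts was -0.73 and -0.75, beyond the members' -0.49. Between the sorts the groups differed more: CLP minus LSK had a median of 0.09 in SFRP5 and 0.82 in WT for ribosomal genes, and of 0.73 in SFRP5 and 1.49 in WT for the respiratory genes, against 0.74 in SFRP5 and 1.33 in WT for the members. At least 2-fold higher in CLP were 1 of 81 ribosomal genes in SFRP5 and 22 in WT, and 20 of 87 respiratory genes in SFRP5 and 72 in WT. Of all genes 11.5% in SFRP5 and 17.8% in WT were. These groups were compared by their medians, without a test.

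**Figure D5:**
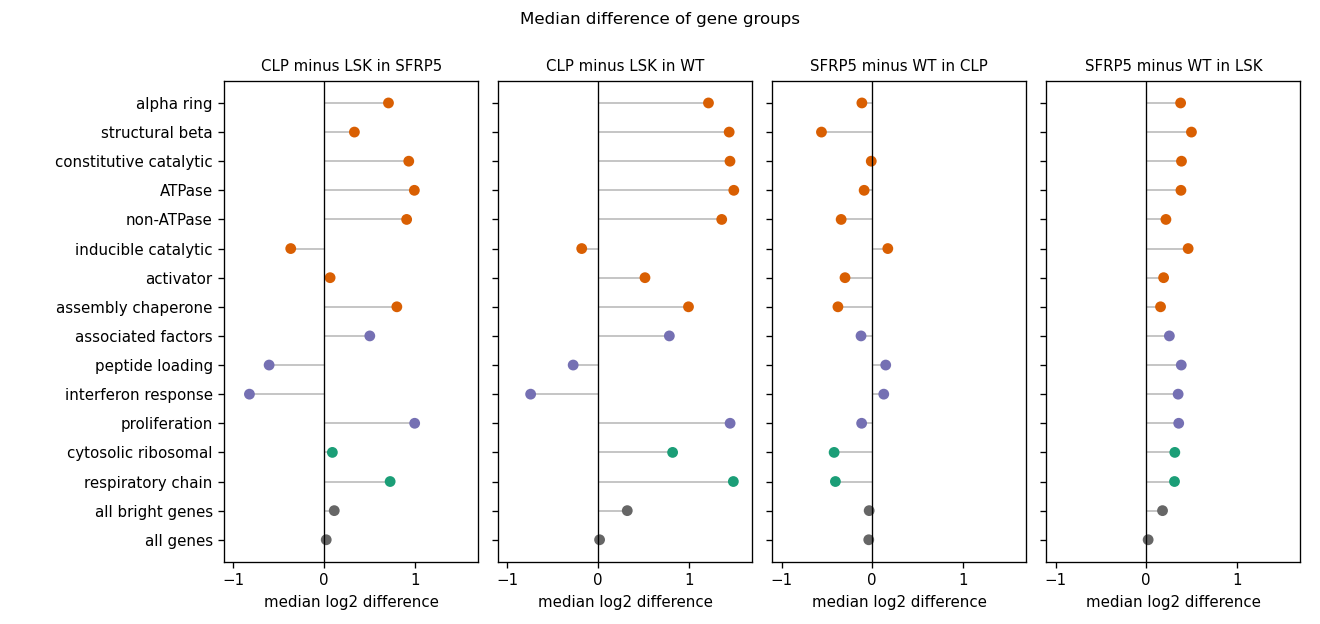
Median log2 difference of gene groups in the 4 comparisons, 1 panel each (x axis, median log2 difference; y axis, proteasome role classes in orange, related lists in violet, other housekeeping groups in green, all measured and bright genes in grey). The inducible subunits, peptide loading genes and interferon genes lie left of 0 between the sorts in both genotypes, and the core and regulatory classes lie right of 0.

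Proteasome-associated factors and ubiquitin carriers (29 listed, 28 found on the array) were higher in CLP for 22 of 27 measured genes in SFRP5 and 23 of 26 in WT, with medians of 0.50 and 0.79. At least 2-fold higher were 6 in SFRP5 and 11 in WT, and 0 and 1 at least 2-fold lower. Txnl1, a thioredoxin bound to the regulatory particle, stood at -1.0 in SFRP5 CLP and -2.38 in SFRP5 LSK, and at -0.68 in WT CLP and -1.37 in WT LSK. Fbxo7, a ubiquitin ligase subunit that binds Psmf1, stood at 1.04 in SFRP5 CLP and 0.21 in SFRP5 LSK, and at 1.24 in WT CLP and -0.61 in WT LSK. Both were higher in CLP in both genotypes, and Txnl1 was the only one of the list at least 2-fold lower in SFRP5 LSK than in WT LSK (-1.01). Nfe2l2, a stress-response transcription factor related to Nfe2l1, stood at 1.94 in SFRP5 CLP and 0.60 in SFRP5 LSK, and at 1.68 in WT CLP and 0.63 in WT LSK. Sem1, the smallest lid subunit, which carries no Psm name, stood at 4.86 in SFRP5 CLP and 4.07 in SFRP5 LSK, and at 5.21 in WT CLP and 3.75 in WT LSK. At the other end Zfand5, a zinc finger protein that stimulates the proteasome, stood at 4.42 in SFRP5 CLP and 4.95 in SFRP5 LSK, and at 4.0 in WT CLP and 5.11 in WT LSK. Ubqln2, a shuttle factor, stood at -0.83 in SFRP5 CLP and -0.33 in SFRP5 LSK, and at -1.21 in WT CLP and -0.60 in WT LSK. Both were lower in CLP in both genotypes. In the genotype comparisons the list's medians were -0.12 in CLP and 0.26 in LSK. The extremes in CLP were Ufd1 (-0.90) and Nfe2l1 (-0.63) on the low side, and Zfand2a (0.50) was the highest. In LSK they were Txnl1 and Ecpas (-0.56) on the low side and Fbxo7 (0.81) and Uba1 (0.78), the ubiquitin-activating enzyme, on the high side.

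The peptide loading list (11 genes) split. Between the sorts its median was -0.61 in SFRP5 and -0.28 in WT, with 8 of 11 lower in CLP in SFRP5 and 6 of 11 in WT. The chaperones that also fold other proteins were higher in CLP, namely Calr by 0.87 in SFRP5 and 1.29 in WT, and Pdia3 by 0.80 and 1.13. Nlrc5, the transactivator of MHC class I genes, stood at 0.90 in SFRP5 CLP and 1.89 in SFRP5 LSK, and at 0.05 in WT CLP and 2.19 in WT LSK. Tap1, which forms the peptide transporter with Tap2, stood at -3.29 in SFRP5 CLP and -0.90 in SFRP5 LSK, and at -1.15 in WT CLP and -1.39 in WT LSK. Nlrc5 was lower in CLP in both genotypes and Tap1 in SFRP5 alone. Named after their values were seen, Tap2 (-0.86 in SFRP5 and -0.90 in WT) and the class I chains H2-K1 (-0.61 and -0.85), H2-D1 (-0.48 and -0.28) and B2m (-0.36 and -0.33) were also lower in CLP in both genotypes. Erap1, which trims peptides, differed by -0.61 in SFRP5 and -1.08 in WT. In the genotype comparisons the median was 0.15 in CLP and 0.39 in LSK. Tap1 (-2.14) and Tapbp (-0.25) were the lowest in CLP and Nlrc5 (0.84) and H2-K1 (0.40) the highest. In LSK Erap1 (-0.35) and Nlrc5 (-0.30) were the lowest and Tapbp (0.71) and Calr (0.57) the highest.

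Of the interferon response list (17 genes), 12 of 15 measured genes were lower in CLP in SFRP5 and 13 of 17 in WT, with medians of -0.82 and -0.74, and 6 and 5 were at least 2-fold lower. Oasl2, an interferon-induced antiviral gene, had the largest differences, -4.34 in SFRP5 and -5.11 in WT. Ifit3 (-2.99) followed in SFRP5 and Irf1 (-1.79), the factor known to act on the Psmb8 and Psmb9 genes under interferon gamma, in WT. The receptor chain Ifngr1 (0.78 in SFRP5 and 0.92 in WT) and Irf8 (1.31 and 1.66), a factor of myeloid and dendritic lineages, were the highest. Between genotypes the medians were 0.13 in CLP and 0.35 in LSK. The extremes in CLP were Irf7 (-1.90) and Ifit3 (-1.20) on the low side and Mx1 (1.5) and Oasl2 (0.97) on the high side. In LSK they were Usp18 (-0.56) and Irf7 (-0.13) on the low side and Mx1 (1.55) and Ifit3 (1.04) on the high side.

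Proliferation genes moved between the sorts in the same direction as the constitutive subunits. All 15 listed genes were higher in CLP in both genotypes, with medians of 1.0 in SFRP5 and 1.46 in WT. At least 2-fold higher were 7 (46.7%) in SFRP5 and 13 (86.7%) in WT, where 11.5% and 17.8% of all genes were. The summed signal of the 15 was 573 times the 75th percentile in SFRP5 CLP and 335 times in SFRP5 LSK, and 617 times in WT CLP and 276 times in WT LSK. Ccnb1, a cyclin of mitosis, stood at 2.87 in SFRP5 CLP and 1.1 in SFRP5 LSK, and at 3.18 in WT CLP and 0.97 in WT LSK. Ccna2, the cyclin of DNA replication and mitotic entry, differed by 1.44 in SFRP5, and Plk1, a mitotic kinase, by 2.43 in WT. The smallest were Mcm6 (0.50 in SFRP5 and 0.80 in WT), Top2a in SFRP5 (0.51) and Mcm3 in WT (0.82). Between genotypes the medians were -0.12 in CLP and 0.36 in LSK. The extremes in CLP were Mcm5 (-0.47) and Mcm2 (-0.40) against Aurkb (0.40) and Mki67 (0.28), and in LSK Mki67 (0.08) and Ccnb1 (0.13) against Plk1 (0.88) and Aurkb (0.80). The part of proliferation, and of the erythroid, myeloid, basophil and B lineage markers given at the start, in the differences of the members between the sorts was not tested.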

How the data were processed

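RNA of 4 samples was read on 1-colour Agilent arrays, 1 per group, from 6.1 ng of total RNA amplified as cDNA per the labels' protocols. The deposited scanner files hold each spot's intensity, background-subtracted by the authors with Agilent Feature Extraction 10.10 per the submitters' processing notes (10.10.1.1 and build mm9 per the file headers). The authors' deposited signal table is that intensity times 1 factor per array, 4.91 to 6.42 as computed here. The rule behind the factors is stated in no label or header.

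The processed intensity of 59305 spots was put on the log2 scale less each array's 75th percentile (227 to 291). Between 128 and 160 flagged spots per array were left out, and spots of a probe were averaged. The brightest probe stood for a gene. Symbols were updated through RefSeq (GRCm38.p6), where all 49 members matched. A gene was measured when well above background, by the software's flag, on both arrays compared. With 1 array per group there is no residual spread within a comparison, so there was no test; a fit of genotype plus sort was not run.

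The 8 alternatives were quantile normalization, cyclic loess, centring on bright genes, the authors' signal table, normexp (offset 50), 2 filters and averaging over the probes of a gene. The normexp setting used the median spot signal in place of the mean signal, which was not used here. Exclusions of members (2), the counts of sign patterns and their mark of size were added after seeing the data. Any member could be named; of other lists the 2 highest and 2 lowest per comparison were, except 1 gene that is not reported here. The call and difference steps were tested on simulated data. The members and lists were chosen with earlier results of these data known. Python 3.11.15, numpy 2.4.6, pandas 2.3.3, R 4.3.3 and limma 3.58.1 were used.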

Additional observations from a re-analysis of the deposited data

Results flagged for a closer look

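Psmd8, Psmd13, Psmg3 and Psmb3 were picked out because SFRP5 was at least 1.5-fold above WT in LSK and at least 1.5-fold below WT in CLP. The CLP difference minus the LSK difference was -1.86 for Psmd8, -1.79 for Psmd13, -1.66 for Psmg3 and -1.30 for Psmb3. With 1 array per group the difference between the sorts was not tested. Of the 47 members above background on all 4 arrays these are 8.51%, where 3.0% of all genes and 2.79% of bright genes met the same mark. Of the 8 alternative settings 5 could move these 4 genes, and Psmb3 fell short of this mark in 5 of them and Psmg3 in 3. No group is large enough to look for outlying arrays.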

How the results depend on the processing

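The members' medians kept their sign under all alternatives. The gap between inducible and constitutive subunits, as a median of 3 pairs, kept its sign in all 4 comparisons, though bright centring, the authors' scaling and the 2 filters could not change it. Between genotypes this median was above 0 (0.38 in CLP and 0.12 in LSK), whereas the gap of Psmb10 and Psmb7 was below 0 (-0.07 and -0.27). Sizes and counts depended on the scaling. Values are given in the order CLP minus LSK in SFRP5, CLP minus LSK in WT, SFRP5 minus WT in CLP and SFRP5 minus WT in LSK. The members' medians were 0.56, 0.91, -0.18 and 0.21 with the authors' scaling, 0.59, 0.88, -0.17 and 0.17 with cyclic loess, and 0.59, 0.88, -0.13 and 0.20 with quantile normalization. Centring on bright genes gave 0.59 and 1.01 between sorts and 0.18 between genotypes in LSK, normexp 1.22 between sorts in WT, averaging over probes 0.84 and leaving out inducible subunits and activators 0.87 between sorts in SFRP5. Members at least 2-fold higher in CLP were 6 and 18 in SFRP5 and WT with the authors' scaling (8.48% and 9.61% of all genes) and with cyclic loess (10.4% and 15.6%), 5 and 17 with quantile normalization (10.3% and 16.1%), and 6 in SFRP5 with bright centring (8.94%).

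Shares of all genes are in brackets. Members at least 2-fold higher in SFRP5 LSK were 0 with the authors' scaling (4.79%), bright centring (4.47%) and normexp (2.89%). They were 2 with quantile normalization (8.39%), against 1 (6.57%). Members at least 2-fold lower in SFRP5 CLP were 0 with the authors' scaling (3.49%), quantile normalization (3.85%), normexp (0.979%) and the mean of probes (4.77%). They were 2 with no filter (8.38%). With no filter 1 member was also lower in CLP in SFRP5 (12.7%) and 1 lower in SFRP5 LSK (13.1%), and cyclic loess put 1 lower in CLP in WT (14.5%). The median gap of the catalytic pairs in WT was -1.40 with cyclic loess and -1.39 with quantile normalization. The members' median difference of differences was -0.27 with the authors' scaling, -0.33 with bright centring, -0.26 with cyclic loess and -0.24 with quantile normalization. Members higher in SFRP5 in LSK and lower in SFRP5 in CLP were 21 with the authors' scaling and with cyclic loess (21.0% and 29.1% of all genes). Between the sorts, 33 to 34 core and regulatory genes were above 0 in both genotypes throughout. The medians of 4 role classes changed sign in some comparison. Those of activators between sorts (-0.0395 in WT with quantile normalization), and of ATPases and constitutive catalytic subunits between genotypes in CLP, are given with the results. Between genotypes in LSK core chaperones (-0.0047, bright centring) and activators (-0.0026, mean of probes) did so. The causes were not tested. The median of all genes itself moved, by -0.19, -0.41, 0.10 and -0.13 with the authors' scaling and by -0.15, -0.31, -0.00 and -0.16 with bright centring.

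The number of arrays limits every value, and differences near the spread of replicate spots (0.0885 for a difference of bright probes) carry no order. The labels give no replicate numbers, so no replicate block was fitted, and an additive fit of genotype plus sort was not run.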

Other observations

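Across the 47 members, the differences between sorts in SFRP5 and in WT had a Pearson r of 0.72 (0.75 over 9075 bright genes), and the differences between genotypes in LSK and in CLP one of -0.01 (-0.06 over bright genes). These describe genes on the same 4 arrays, which are not independent replicates, and no p-value is given.

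Of 5 T lineage markers listed, Lck and Cd3e were above background on all 4 arrays, Cd3d on WT CLP alone, Cd8a on WT LSK alone and Cd3g on none, with summed signals of 2.33 and 3.99 times the 75th percentile in SFRP5 CLP and LSK, and 2.80 and 5.45 in WT CLP and LSK. The plasmacytoid dendritic list (4 found) summed to 36.4 and 38.7 in SFRP5 CLP and LSK, and 41.5 and 40.5 in WT CLP and LSK. It was led by Siglech, whose difference, CLP minus LSK, was -0.20 in SFRP5 and -0.09 in WT. Irf8 was higher in CLP by 1.31 in SFRP5 and 1.66 in WT. Bst2 differed by -0.04 and 1.02, and Ccr9 by 0.04 and -0.89. The natural killer and innate lymphoid list (5 genes) summed to 40.8 and 16.9 in SFRP5 CLP and LSK, and 37.5 and 14.6 in WT CLP and LSK. This sum was led by Nkg7, higher in CLP by 1.36 in SFRP5 and 1.45 in WT. Rora (0.59 and 0.49) and Gata3 (0.58 and 0.90) were also higher in CLP, whereas Gzma was lower (-3.95 and -0.88). Klrb1c was above background on SFRP5 CLP and WT LSK alone.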
